A study of Mus musculus with 8 samples.

Results

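The inflammatory cytokine and inflammasome genes Il1b, Il1a, Tnf, Il6, Il12b, Il10, Il1rn, Il18, Nlrp3 and Casp1 were followed in 8 RNA libraries from demyelinated mice, made from corpus callosum microglia, which are macrophages that reside in the brain. The genes were taken by symbol from the deposited table, which lists 46983 genes, and all 10 were found once. The mice had a mixed FvB and C57BL6 background. All carried a tamoxifen-inducible Cre recombinase (CreER) under Cx3cr1, a gene of microglia and other mononuclear phagocytes, together with loxP sites on 1 or both alleles of Qk, which encodes the RNA-binding protein quaking. All received tamoxifen at 8 weeks of age and then 0.2% cuprizone, a copper chelator that kills oligodendrocytes, for 6 weeks, so every library comes from a demyelinating brain and no untreated library is among them.

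By sample name, 4 libraries were WT (Cx3cr1-CreER;QKLoxP/+, with 1 allele flanked by loxP and 1 not flanked) and 4 were Qk-KO (Cx3cr1-CreER;QKLoxP/LoxP). For named WT 2, named WT 3, named Qk-KO 1 and named Qk-KO 3 the label also has a genotype entry that contradicts the name. Libraries are therefore called by name, both groupings were tested, and no difference is assigned to a genotype. Separate animals are not stated for the libraries, so p-values here reflect spread among libraries alone, and that spread may be technical. Rough totals of reads assigned to genes, rounded to 100000, ran from 43900000 to 69700000, with a mean of 65000000 ± 4100000 for named WT and a lower mean of 50300000 ± 7100000 for named Qk-KO (SD, n = 4 per group). All 8 markers of microglia were detected, and Csf1r, the receptor for the growth factor CSF1, had a mean of 5878 CPM (counts scaled to 1000000 per library). P2ry12, a receptor typical of homeostatic microglia, averaged 377.4 CPM and log2 values of 14.82 to 14.99 in named WT but 12.09 to 14.40 in named Qk-KO, without overlap.

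Inflammatory cytokines of microglia are made in steps. A first signal, usually through NF-kB, a family of transcription factors, switches on the genes of IL-1, TNF, IL-6, IL-12 and the sensor NLRP3. A second signal lets NLRP3 assemble with an adaptor and caspase-1 into the inflammasome, in which caspase-1 cuts the precursors of IL-1β and IL-18 into their active forms. IL-18 and caspase-1 are made by many macrophages without a first signal, while the receptor antagonist IL-1RN and the cytokine IL-10 hold the response back. RNA levels show the first step only. Messenger RNAs of many cytokines carry AUUUA repeats in their 3′ untranslated regions, at which decay factors such as tristetraprolin bind. Quaking binds RNA at sites with the core ACUAAC or ACUAAU.

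The start regions of 5 of the genes are shown because 3 of them belong to the most abundant members, Il6 holds an NF-kB site, and Casp1 is one of the steady genes. Each is the 250 bases before the RefSeq transcription start (GRCm38.p6), written in the direction of the gene. Capitals mark TATAAA, the AP-1 motif TGANTCA and the consensus NF-kB site, each searched on both strands of a 300-base window that also takes in the first 50 transcribed bases.
Il1b, chr2:129371140-129371389, minus strand: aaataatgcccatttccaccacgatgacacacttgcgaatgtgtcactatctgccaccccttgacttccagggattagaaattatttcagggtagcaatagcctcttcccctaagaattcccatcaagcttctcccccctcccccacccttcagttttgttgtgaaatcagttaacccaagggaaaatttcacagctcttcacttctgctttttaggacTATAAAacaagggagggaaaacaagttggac
Il1a, chr2:129309973-129310222, minus strand: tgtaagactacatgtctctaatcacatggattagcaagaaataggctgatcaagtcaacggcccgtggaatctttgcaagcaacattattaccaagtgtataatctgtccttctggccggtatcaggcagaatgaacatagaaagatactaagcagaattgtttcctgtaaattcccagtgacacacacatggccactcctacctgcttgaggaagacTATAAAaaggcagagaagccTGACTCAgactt
Tnf, chr17:35202008-35202257, minus strand: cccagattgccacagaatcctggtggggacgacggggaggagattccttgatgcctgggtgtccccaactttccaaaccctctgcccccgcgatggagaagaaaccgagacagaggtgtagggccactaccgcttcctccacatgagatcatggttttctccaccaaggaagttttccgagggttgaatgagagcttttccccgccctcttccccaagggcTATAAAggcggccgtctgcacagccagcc
Il6, chr5:30012864-30013113, plus strand: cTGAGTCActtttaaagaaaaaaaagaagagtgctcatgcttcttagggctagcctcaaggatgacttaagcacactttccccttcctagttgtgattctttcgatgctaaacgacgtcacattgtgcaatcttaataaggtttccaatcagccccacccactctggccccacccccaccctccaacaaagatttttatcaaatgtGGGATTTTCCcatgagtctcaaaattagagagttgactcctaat
Casp1, chr9:5298267-5298516, plus strand: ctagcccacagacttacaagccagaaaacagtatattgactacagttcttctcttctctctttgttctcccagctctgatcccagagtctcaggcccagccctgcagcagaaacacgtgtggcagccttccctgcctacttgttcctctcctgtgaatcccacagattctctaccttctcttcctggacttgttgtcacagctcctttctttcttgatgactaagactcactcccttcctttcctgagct

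The start regions of Il1b, Il1a and Tnf each held TATAAA, with its first base at -31, -32 and -29 from the start. Of 9 genes matched in the promoter table, 4 had TATAAA anywhere in the window, against 13.6% of all 32851 windows of that length, and the match in Il18 lay at -175 on the other strand. The consensus NF-kB site was found in Il6 and Nlrp3 (4.51% of all windows), and TGANTCA in Il6, Il1a and Il1rn (7.81% of all windows). These windows are short, and a motif absent from them may lie farther away.

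AUUUA repeats (ATTTA in the DNA letters used here) were counted at the other end of the messages. The 3′ untranslated region of Tnf, 764 bases long, held 8 ATTTA. Among regions within 20% of its length, 0.333% held as many. Il6, Il10 and Il12b held 6 each, Nlrp3 held 5 and Il1b held 4, with as many in 0.562%, 1.88%, 2.33%, 3.70% and 3.46% of regions of like length. Il1a held 3 (35.6% of regions of like length had as many), Il18 held 1, and Il1rn and Casp1 held none. The densest stretches are shown with ATTTA in capitals.
Tnf: tATTTAttATTTATTTAttATTTATTTAtt
Il12b: ATTTAagtaATTTAtgtATTTAttaATTTA
Il1b: ttacctATTTATTTAtgtATTTAttgattg
Il6: atttttaATTTAttgataATTTAaataagt
Nlrp3: agATTTAtaaaacccatttttgtATTTAtt

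Because the study deleted Qk, the quaking core motif was also searched in the 3′ untranslated regions, as ACTAAC or ACTAAT. It was present in Il1a, at 2 places, and in Il1rn, at 1 place, and in none of the other 8 genes. Among regions of like length 31.7% and 34.7% held it, so that its presence in these 2 genes is common for their length. The first match of each is in capitals.
Il1a: agtttgctcagtACTAATcattttaattac
Il1rn: atgaatgaatctACTAATcatttcttgacc

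The members spanned a wide range of levels. Divided by exon length, the mean over the 8 libraries was 363.0 CPM per kb for Il1b, 323.7 for Tnf, 213.0 for Il1a, 48.2 for Nlrp3 and 26.5 for Casp1. Il18 followed at 7.22 CPM per kb, Il12b at 4.84, Il1rn at 3.68, Il6 at 0.957 and Il10 at 0.257. IL-1, TNF and the NLRP3 sensor were thus abundant as RNA in these cells, and Il6 and Il10 were the lowest. The order of Il1b and Tnf was not the same in every library, since the deposited log2 value of Tnf minus that of Il1b ran from -0.76 in named Qk-KO 1 to 0.33 in named WT 4. All 10 genes passed the filter on low values, 9 had a mean of at least 1 CPM, and Il10 had 0.337 CPM.

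None of the 10 genes was called between the named groups. In the authors' deposited table, of the 9 members with an adjusted p, 0 were called at 0.05, where 1.22% of 14150 genes were. Of all 10 members there, 0 had an unadjusted p under 0.05, where 6.49% of 27321 genes did. With limma on the deposited log2 values 0 of 10 were called, where 0.00444% of 22546 genes were, and 0 of 10 had an unadjusted p under 0.05, where 8.26% of genes did. No member had named groups that did not overlap, where 5.73% of genes tested had. Differences, as named Qk-KO minus named WT, were positive for 7 members and negative for 3, with a median of 0.10 on the log2 scale against -0.0044 over all genes tested. They ran from -0.22 for Tnf to 0.32 for Nlrp3 (limma adjusted p from 0.849 to 0.970). Exact two-sided permutation tests, with 70 possible assignments, gave p from 0.514 to 1, where 0.0286 is the smallest possible.

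**Figure D1:**
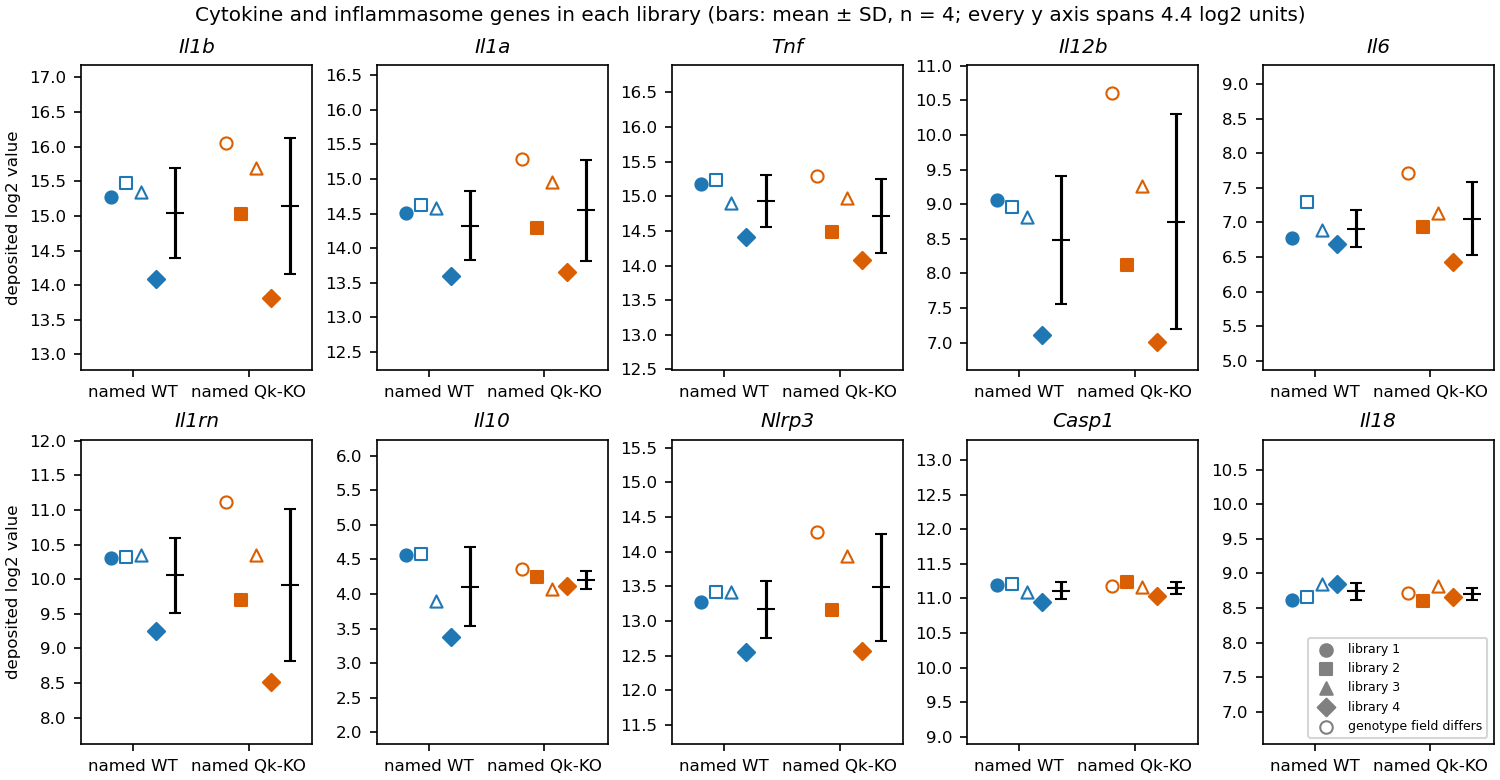
Deposited log2 value of each of the 10 genes (y axes, each spanning 4.4 units, centred on the gene) in the libraries named WT and named Qk-KO (x axis), with the mean ± SD of each group (n = 4). Open symbols are libraries whose genotype field differs from the name; the diamonds, named WT 4 and named Qk-KO 4, are the lowest of their groups in 8 of the 9 genes of at least 1 CPM, while Casp1 and Il18 lie within 0.29 and 0.24 over all 8 libraries.

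Il1b encodes IL-1β, the secreted pyrogenic cytokine that caspase-1 activates (chromosome 2, 129364570 to 129371139, minus strand, GRCm38). Its deposited log2 values, on which 1 unit is a 2-fold step, were 15.27, 15.48, 15.34 and 14.08 in named WT libraries 1 to 4, against 16.06, 15.03, 15.69 and 13.82 in named Qk-KO libraries 1 to 4. Both groups held 1 low library, library 4, and the range of named Qk-KO enclosed that of named WT. The difference was 0.11 ± 0.54 (SE), with a 95% interval that runs from 0.445-fold to 2.60-fold (limma adjusted p = 0.970). In the authors' deposited table it was 0.20 (SE 0.39, adjusted p = 0.907). The annotated antisense transcript Il1bos overlaps Il1b, and strand-aware counting was not stated, so reads of the 2 cannot be told apart.

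Il1a encodes IL-1α, which signals through the same receptor and acts as an alarm signal of damaged cells (chromosome 2, 129299610 to 129309972). It had 14.51, 14.62, 14.59 and 13.59 in named WT libraries 1 to 4, against 15.29, 14.29, 14.95 and 13.65 in named Qk-KO libraries 1 to 4. The libraries thus fell nearly in the order of Il1b, the highest being named Qk-KO 1 and the lowest both of the libraries numbered 4. The difference was 0.22 ± 0.40 (SE; limma adjusted p = 0.902). The non-coding transcript Gm14023 overlaps Il1a on the opposite strand, with the same limit on its reads.

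Tnf encodes tumour necrosis factor, which acts on glia and oligodendrocytes through TNF receptors 1 and 2 (chromosome 17, 35199381 to 35202007). Values were 15.18, 15.23, 14.90 and 14.41 in named WT libraries 1 to 4, against 15.30, 14.49, 14.97 and 14.08 in named Qk-KO libraries 1 to 4. It was the cytokine with the lowest difference, -0.22 ± 0.29 (SE; limma adjusted p = 0.855), and its groups overlapped over most of their range. Its highest library was 2.33-fold above its lowest, against 4.72-fold for Il1b.

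Il12b encodes the p40 chain shared by IL-12 and IL-23, cytokines that steer T cells (chromosome 11, 44400063 to 44414033). It varied most among the members, with 9.06, 8.96, 8.81 and 7.11 in named WT libraries 1 to 4, against 10.61, 8.12, 9.26 and 7.0 in named Qk-KO libraries 1 to 4. The highest library, named Qk-KO 1, was 12.2-fold above the lowest, named Qk-KO 4, although both carry the same name. Their genotype fields differ, with WT for named Qk-KO 1 and Qk-KO for named Qk-KO 4. The difference of 0.26 ± 0.82 (SE) had a 95% interval from 0.316-fold to 4.55-fold (limma adjusted p = 0.944), so that differences of several-fold in either direction lie inside it.

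Il6 encodes IL-6, a cytokine of the acute phase (chromosome 5, 30013114 to 30019981). Its values were 6.77, 7.29, 6.89 and 6.68 in named WT libraries 1 to 4, against 7.71, 6.93, 7.14 and 6.43 in named Qk-KO libraries 1 to 4. The highest and the lowest library were again named Qk-KO 1 and named Qk-KO 4, and the difference was 0.14 ± 0.26 (SE; limma adjusted p = 0.901).

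The antagonists did not part the groups either. Il1rn, the receptor antagonist that blocks IL-1 signalling (chromosome 2, 24336853 to 24351494), had 10.31, 10.31, 10.35 and 9.25 in named WT libraries 1 to 4, against 11.11, 9.70, 10.35 and 8.52 in named Qk-KO libraries 1 to 4. Named WT 1 to 3 lay close together, and named WT 4 and named Qk-KO 4 were the lowest of their groups. The difference was -0.13 ± 0.55 (SE; limma adjusted p = 0.961). The authors' deposited table gives 0.07 (SE 0.45, adjusted p = 0.973), so the sign differs between the 2 computations. The deposited value of Il1rn minus that of Il1b was -4.99 ± 0.14 for named WT, against -5.23 ± 0.19 for named Qk-KO (SD, n = 4 per group), and the groups overlapped. Antagonist and agonist thus kept a similar offset while each moved over more than 2 units.

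Il10, the cytokine that damps macrophage activation (chromosome 1, 131019845 to 131024974), had 4.56, 4.57, 3.90 and 3.39 in named WT libraries 1 to 4, against 4.36, 4.24, 4.07 and 4.11 in named Qk-KO libraries 1 to 4. All named Qk-KO libraries lay inside the range of named WT. The difference was 0.09 ± 0.27 (SE; limma adjusted p = 0.938), at a level where the deposited values appear to be shrunken towards the gene's mean. The authors' deposited table gives -0.0089 (SE 0.45) and no adjusted p.

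Nlrp3, the sensor of the inflammasome (chromosome 11, 59541568 to 59566956), followed the cytokines. Its values were 13.27, 13.42, 13.41 and 12.56 in named WT libraries 1 to 4, against 14.28, 13.16, 13.94 and 12.56 in named Qk-KO libraries 1 to 4. Its difference was 0.32 ± 0.39 (SE), with a 95% interval from 0.659-fold to 2.37-fold (limma adjusted p = 0.849), and it ran from 0.0546 without named Qk-KO 1 to 0.63 without named Qk-KO 4. Named Qk-KO 1 and 3 were above all named WT libraries, and named Qk-KO 4 was level with named WT 4.

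Casp1, the protease of the inflammasome (chromosome 9, 5298517 to 5307265), was steady, with 11.20, 11.21, 11.10 and 10.95 in named WT libraries 1 to 4, against 11.18, 11.24, 11.16 and 11.03 in named Qk-KO libraries 1 to 4. The highest library was 1.23-fold above the lowest. The difference of 0.04 ± 0.07 (SE) had a 95% interval from 0.916-fold to 1.15-fold (limma adjusted p = 0.903).

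Il18, the second cytokine that caspase-1 activates (chromosome 9, 50554827 to 50581840), had 8.61, 8.66, 8.84 and 8.84 in named WT libraries 1 to 4, against 8.72, 8.60, 8.81 and 8.66 in named Qk-KO libraries 1 to 4. Its highest library was 1.18-fold above its lowest, and unlike the other cytokines it was not low in named WT 4, which held its highest value. The difference was -0.04 ± 0.09 (SE), with a 95% interval from 0.840-fold to 1.12-fold (limma adjusted p = 0.920). Bco2 and Tex12 overlap Il18 on the opposite strand, so its reads are uncertain in part.

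By the genotype field the signs were mostly the other way. That field puts named WT 1, named WT 4, named Qk-KO 1 and named Qk-KO 3 into WT, which include the library with the highest Il1b. Differences, as Qk-KO minus WT by that field, were negative for 8 members and positive for 2, with a median of -0.29, and ran from -0.79 ± 0.75 (SE) for Il12b to 0.11 ± 0.27 (SE) for Il10. Limma called 0 of 10, each with an adjusted p of 0.9995, and 0 of 10 had an unadjusted p under 0.05, where 2.67% of genes did; of all genes it called 0 of 22546, or 0% (602 at an unadjusted p under 0.05). No member's groups were without overlap, where 1.85% of genes were. The exact permutation p ran from 0.343 to 0.743. The difference of Il1b changed from 0.11 by name to -0.36 by genotype field and that of Nlrp3 from 0.32 to -0.38, neither called.

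**Figure D2:**
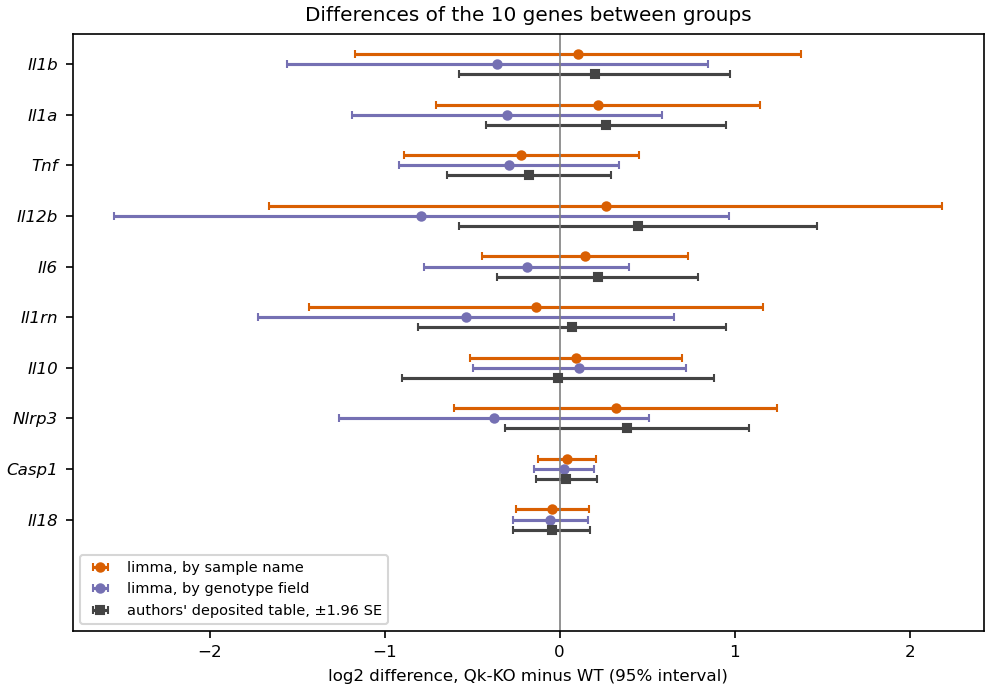
Differences of the 10 genes on the log2 scale, Qk-KO minus WT (x axis), with 95% intervals, by sample name (limma, orange), by genotype field (limma, purple) and in the authors' deposited table (grey squares, which follow the sample names). All intervals cross 0; those of Casp1 and Il18 are the narrowest and that of Il12b is the widest.

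The spread between libraries of the same name was large for 7 of the members and small for Casp1 and Il18. The within-group SD was 1.27 for Il12b, 0.86 for Il1rn, 0.83 for Il1b, 0.62 for both Il1a and Nlrp3, 0.46 for Tnf and 0.42 for Il6. These stood at percentiles 99.2, 97.5, 97.2, 94.3, 94.2, 90.2 and 88.7 of the 13463 genes of at least 1 CPM, whose median SD was 0.14. Casp1 and Il18, at 0.11 each, stood at percentiles 33.6 and 33.9.

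Library 4 of each group was the low one. Named WT 4 was the lowest named WT library and named Qk-KO 4 the lowest named Qk-KO library in 8 of the 9 members of at least 1 CPM, where 19.8% of the 13463 genes of that level showed this order; the measure was chosen after the values were seen, and members that vary together are not independent. Il18 was the exception. Without both libraries numbered 4, a setting also chosen after seeing the data, the SD of Il1b in named WT was 0.11 (n = 3) and that of Il1rn 0.02, while named Qk-KO kept 0.52 and 0.71. The differences then were 0.23 for Il1b, 0.43 for Nlrp3, 0.39 for Il12b and -0.18 for Tnf, and 0 of 10 members were called (limma adjusted p from 0.610 to 0.989, and 0 of 10 at an unadjusted p under 0.05), where 0.0177% of genes were called and 13.5% had an unadjusted p under 0.05.

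Markers of other cells moved with these libraries. The mean log2 value of 5 oligodendrocyte markers reached 9.57 in named WT 4 and, similarly, 9.62 in named Qk-KO 4, and lay between 6.94 and 7.64 in the other 6 libraries. Their summed level ran from 88.2 to 240.6 CPM over named WT libraries and from 88.0 to 205.3 CPM over named Qk-KO libraries, and none of the 5 was at 0. Astrocyte markers were highest in the same 2 libraries, at 11.02 and 10.84, against 8.04 to 10.20 elsewhere (6 of 6 detected; summed level 135.8 to 348.6 CPM for named WT, 64.6 to 297.0 CPM for named Qk-KO). Neutrophil markers were lowest there, at 6.47 and 7.29, and highest in named WT 2, at 10.16 (9 of 9 detected; summed level 635.2 to 906.1 CPM and 544.1 to 805.1 CPM, mostly Csf3r, which had a mean of 642.9 CPM). By mean log2 value, other blood cell lists were also lowest in named WT 4 and named Qk-KO 4. Monocyte markers had 6.75 and 7.03 there (7.59 to 8.65 elsewhere), and T and NK cell markers 4.35 and 4.15 (4.63 to 5.07). B cell markers had 4.85 and 4.98 (5.15 to 5.51), and dendritic cell markers 5.21 and 5.25 (5.35 to 5.62). Summed levels of monocyte and of T and NK cell markers were also the lowest of each named group there. In named Qk-KO 4, however, B cell markers summed to 12.1 CPM, the highest of named Qk-KO. Dendritic cell markers summed to 10.6 CPM there (9.64 to 12.6 over named Qk-KO). The B cell and the T and NK cell list each had 1 gene of at least 1 CPM. The 10 immediate early and heat-shock genes, which handling of cells can induce, had means of 15.04 and 15.09 in these 2 libraries and of 15.48 to 15.86 in the other 6, but these 10 did not move as 1 group, since 5 of them were lowest in both. Hspa1a, a heat-shock gene with the near-identical copy Hspa1b, had 12.75 and 13.10 there against 14.16 to 16.04 elsewhere, and Fosb 13.05 and 12.61 against 14.12 to 14.71. Ier2 was highest in the same 2 libraries, at 14.54 in each. The part of these markers in the low cytokine values was not tested. In bulk RNA, fewer cells of a type and less RNA per cell cannot be told apart. Microglial markers had a mean of 15.69 to 15.89 over named WT libraries, the highest in named WT 4, and of 15.29 to 15.56 over named Qk-KO libraries, with 15.37 in named Qk-KO 4, so every named Qk-KO library lay below every named WT library. The depth of named WT 4 was 65000000 reads. That of named Qk-KO 4 was 44800000 reads, near the lowest of the 8 libraries, 43900000 in named Qk-KO 3. The part of depth in the low cytokine values was not tested.

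**Figure D3:**
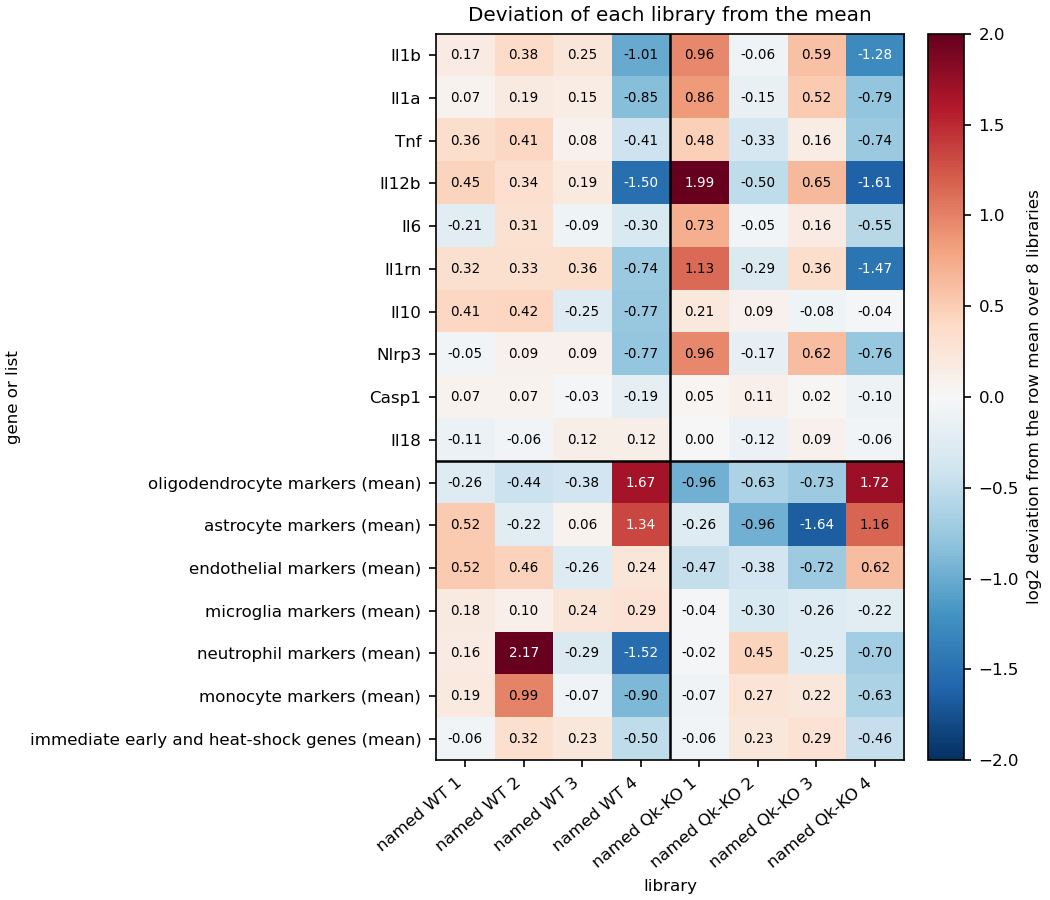
Deviation of each of the 8 libraries (columns) from the row mean on the log2 scale (colour and printed value), for the 10 genes (upper rows) and for the mean of the markers of other cell types and of immediate early genes (lower rows). Named WT 4 and named Qk-KO 4 are low for 7 of the genes and high for oligodendrocyte and astrocyte markers; Casp1 and Il18 stay near 0 throughout.

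A set of 7 of the genes, grouped after their values were seen (Il1b, Il1a, Tnf, Il6, Il12b, Il1rn and Nlrp3) rose and fell together over the 8 libraries. Over their 21 pairs Pearson's r was 0.78 to 0.99, and all 21 had an exact permutation p for r under 0.05 after Benjamini-Hochberg adjustment over the 45 pairs of members (0.00112 to 0.0364). The 7 were grouped on these same values, so that count is no support for the grouping. The share over pairs of all genes was not computed. Spearman's rho was 0.79 to 1, and its adjusted exact permutation p was above 0.05 for 1 of the 21, Il6 with Il12b (0.0571). For Il1b with Nlrp3 r was 0.956 (exact permutation p = 0.000174, adjusted 0.00136) and rho 0.976 (exact permutation p = 0.000397). Without the 2 libraries farthest from the median of Il1b, which were named WT 4 and named Qk-KO 4, r was 0.971 over the remaining 6. Without the same 2 libraries the 21 values of r ran from 0.52, for Tnf with Nlrp3, to 0.99. Relations of Tnf thus rested more on those libraries: Il1b with Tnf went from 0.904 (exact permutation p = 0.000967) to 0.696. The libraries of a single name number 4, too few for an r of their own, and each point shares a library's depth and cell composition across genes.

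Casp1 and Il18 did not share this pattern. Casp1 had r of 0.56 to 0.74 with the 7 genes over all 8 libraries (adjusted exact permutation p from 0.0749 to 0.208), and -0.38 to 0.05 without named WT 4 and named Qk-KO 4, so its relation rested on those libraries. For Il18 r lay between -0.02 and 0.10 (adjusted exact permutation p from 0.927 to 0.980), and between 0.09 and 0.47 without named WT 4 and named Qk-KO 4. From the lowest to the highest library Casp1 and Il18 varied 1.23-fold and 1.18-fold, while Nlrp3 and Il1b varied 3.31-fold and 4.72-fold. The cause of this contrast was not tested. Il10 correlated with Casp1 at 0.850 (exact permutation p = 0.00818, adjusted 0.0184; rho 0.786, exact permutation p = 0.0279) and with Il18 at -0.764 (exact permutation p = 0.0186, adjusted 0.0364; rho -0.690, exact permutation p = 0.0694), at few reads. Without the 2 libraries farthest from the median of Il10 these were 0.588 and -0.734.

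**Figure D4:**
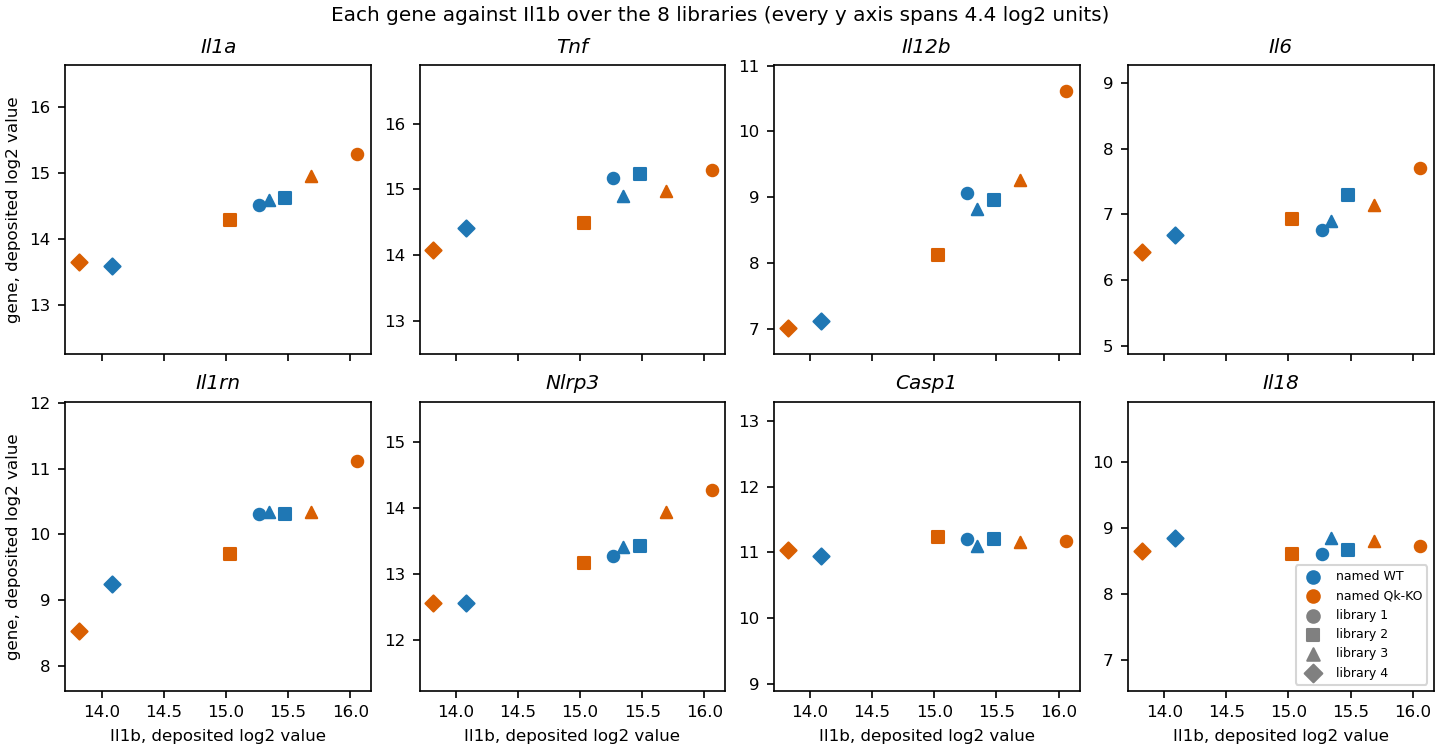
Deposited log2 value of 8 genes (y axes, each spanning 4.4 units) against that of Il1b (x axis) in the 8 libraries, coloured by sample name with 1 symbol per library number. Il1a, Tnf, Il12b, Il6, Il1rn and Nlrp3 rise with Il1b over the 8 libraries. Named WT 1 to 3 lie close together in Il1b (15.27 to 15.48), so the rise in named WT rests mainly on named WT 4. Casp1 and Il18 vary little, 1.23-fold and 1.18-fold from the lowest to the highest library.

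The genes most like each member in pattern, by Pearson's r over the 8 libraries among 11808 other protein-coding genes of at least 1 CPM, are given as a description. For Il1b they were Icam1, an adhesion molecule for leukocytes, Gadd45b, a stress-response gene, and Rasgef1b, at r = 0.993, 0.993 and 0.991. For Il1a they were Cd83, Noct and Ifrd1, at 0.998, 0.997 and 0.997. Nlrp3 was closest to Nfkbib, an inhibitor of NF-kB (0.998), then to the nuclear receptor Nr4a2 (0.995) and Ifrd1 (0.994). Il12b was closest to Il23a, the chain with which p40 forms IL-23 (0.997). For Il1rn the first was the growth factor Pdgfb (0.989) and for Tnf the autophagy protease Atg4c (0.972). Casp1 was closest to Ubxn6 (0.957) and Il18 to Frmd4a (0.931).

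Among other genes of these pathways none was called. Lists for inflammasome sensors, inflammasome assembly and pyroptosis, IL-1 and IL-18 receptors, TNF signalling, IL-6 and IL-10 receptors, IL-12 and IL-23, NF-kB and cytokine mRNA stability held 115 genes, all found in the table (Gsdme and Card19 by older symbols), and 110 were tested. Limma called 0 of 110 between named groups, where 0.00444% of genes were called, and 4 of 110 had an unadjusted p under 0.05, where 8.26% of genes did (smallest adjusted p 0.477). Of the 104 with an adjusted p, the authors' deposited table called 0, where 1.22% of genes were called, and 5 pathway genes had an unadjusted p under 0.05 there, where 6.49% of genes did. The medians of the lists ran from -0.05 for the IL-1 and IL-18 receptors to 0.11 for NF-kB.

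Genes of the NF-kB list, like the members, were often lowest in library 4 of each group. Of its 17 genes 12 were lowest in both libraries numbered 4, against 19.8% of all genes. By name 16 of the 17 had a positive difference (48.8% of all genes tested), with a median of 0.11, but by genotype field 4 of 17 did (50.7% of all genes), with a median of -0.11. Rel, the c-Rel subunit of NF-kB, had 12.44, 12.48, 12.69 and 11.66 in named WT libraries 1 to 4, against 14.04, 12.24, 13.54 and 11.57 in named Qk-KO libraries 1 to 4. Its difference by name of 0.53 was the highest of that list (limma adjusted p = 0.819) and became -0.68 by genotype field, while Rela, the p65 subunit, had the lowest, -0.0016 (limma adjusted p = 0.998). Named Qk-KO 1 and 3 were thus above all named WT libraries for Rel, as for Nlrp3.

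In the other lists, fewer genes followed that order. It was seen in 3 of 9 inflammasome sensors, 4 of 13 assembly and pyroptosis genes, 4 of 15 IL-1 and IL-18 receptor genes, 4 of 17 TNF genes, 7 of 15 IL-6 and IL-10 genes, 1 of 6 IL-12 and IL-23 genes and 3 of 11 mRNA stability factors. Named by rule as the highest and lowest differences of their lists, none of them called, were the sensors Mefv (0.32) and Nlrp1a (-0.23), Pstpip1 (0.34) and the pyroptosis gene Gsdme, listed as Dfna5 (-0.39), the decoy receptor Il1r2 (0.28) and the inhibitory receptor Sigirr (-0.26). The remaining ones were the ubiquitin ligase Birc3 (0.36) and Timp3, an inhibitor of the TNF-releasing protease (-0.74), Nfil3 (0.50) and the oncostatin M receptor Osmr (-0.34), Il23a (0.23) and the receptor Il12rb2 (-0.13), and the RNA-cutting Zc3h12a (0.33) and the decay factor Zfp36l1 (-0.20). Limma adjusted p for these 14 ran from 0.604 to 0.938.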

How the data were processed

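Total RNA of microglia was sequenced in 8 libraries, 4 per sample name. Per the submitters' processing notes, FastQC, HISAT2, StringTie and DESeq2 were used with the build mm10; versions, strand handling and the annotation release: not given in the sources used here. Values for the 8 libraries were deposited on a log2 scale, and they behave as regularized values shrunken towards a gene's mean at low counts; genes without reads are listed at 0. The deposited mean signal of a gene (baseMean per the file headers) was divided by 56.8, the signal that equals 1 CPM. Per the file headers, the authors' deposited table also gives a log2 fold change with its SE, a p-value with its adjusted form, and a test statistic, which is a score. The 95% intervals drawn for it are 1.96 SE.

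A count test had been planned; it was not run, since the deposited values are not counts. Genes with reads and a value of at least 1 on the linear scale in at least 4 libraries (22546) were fitted with limma 3.58.1 in R 4.3.3, on the log2 values with no pseudocount (empirical Bayes with trend and robust options), and the threshold for a call was 0.05 after Benjamini-Hochberg adjustment. The fit was tested on simulated data. Depth was estimated from genes with reads in 1 library, whose mean signals are whole multiples of 1 read within 1%, and from the summed values. Correlations among libraries ran from 0.954 to 0.9876, with no pair identical. Locations and exon lengths come from GENCODE M21 (GRCm38), where 9 of 10 identifiers matched with their version and Il18 without it. Start regions come from RefSeq and untranslated regions from the transcript with the longest coding part. Alternatives were other filters, centring, quantile normalization, no trend, a replicate block, the genotype field, libraries whose labels agree, and leaving out libraries.

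The members and lists were chosen with earlier results of these data known. Named besides the members were, per list, called genes or else the highest and lowest difference at 1 CPM or more, the nearest genes in pattern, and the most abundant markers. Outside this rule, P2ry12, Hspa1a, Hspa1b, Fosb and Ier2 were named for their values. The endothelial and border-associated macrophage markers had list means of 9.00 to 10.34 and 9.15 to 9.86 over the libraries.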

Additional observations from a re-analysis of the deposited data

Results flagged for a closer look

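In 8 of 52 sets of 4 libraries, made of 26 genes in each named group, 1 library lay far from the other 3 by Dixon's criterion, which chance meets in about 1 of 20 such sets; genes that vary together do not count separately. In 7 of the 8 it was named WT 4. There Il1b was at 14.08, with the nearest other named WT library at 15.27, Il1a at 13.59 (nearest 14.51), Il1rn at 9.25 (nearest 10.31), Il12b at 7.11 (nearest 8.81) and Nlrp3 at 12.56 (nearest 13.27). Birc3 was at 11.00 (nearest 11.71) and Il23a at 4.89 (nearest 6.29) in the same library. Timp3 was at 9.15 in named WT 3, with the nearest other at 10.01. In named Qk-KO no library met the criterion, although named Qk-KO 4 had lower values of Il1b (13.82), Il1rn (8.52) and Il12b (7.0) than named WT 4.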

How the results depend on the processing

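Under the alternatives run, 0 members were called by limma in any setting, by name or by genotype field. Called pathway genes were counted in the settings by name and in the main fit by genotype field, and were 0 in each. They were not counted in the other settings by genotype field. The number of all genes called by name, 1 of 22546, was also 1 with the replicate block, with other filters, centring, quantile normalization and no trend. It was 0 to 7 leaving out 1 library (0 without named Qk-KO 3, 2 without named Qk-KO 1, 3 without named WT 2 or named Qk-KO 2, 7 without named Qk-KO 4), 4 without both libraries numbered 4 (chosen after seeing the data), 0 by genotype field and 3 in the 4 libraries whose labels agree. By genotype field it was 0, then 0 to 1 leaving out 1 library (1 without named WT 1, named WT 4 or named Qk-KO 2) and 1 without both libraries numbered 4. The labels give the numbers no meaning beyond a count; deviations of same-numbered libraries correlated at 0.0462, 0.15, 0.27 and 0.46, and those numbered 3 and 4 matched each other best, those numbered 1 and 2 not in both directions. Whether the numbers mark a pairing was thus not settled, and the block, which raised the genes at an unadjusted p under 0.05 from 1863 to 2924, is given as an alternative only.

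Signs were not stable for every gene, and the cause was not tested. Over the alternatives for single genes, 56 differences had a reversed sign and 526 kept the sign of the main fit. Tnf stayed negative when any 1 library was left out, at -0.42 to -0.0090 by name and -0.48 to -0.0909 by genotype field. The values that follow are reversed, or are ranges that cross 0. By genotype field the differences were -0.36 for Il1b, -0.30 for Il1a, -0.19 for Il6, -0.79 for Il12b, -0.38 for Nlrp3, -0.10 for Mefv, 0.21 for Nlrp1a, 0.33 for Sigirr, -0.32 for Birc3, 0.38 for Timp3, -0.16 for Nfil3, -0.50 for Il23a, -0.68 for Rel, -0.30 for Zc3h12a and 0.0119 for Zfp36l1. In the libraries whose labels agree they were -0.25 for Il1b, -0.0805 for Il1a, -0.0451 for Il6, -0.53 for Il12b, -0.0554 for Nlrp3, 0.0733 for Sigirr, -0.28 for Il23a and -0.15 for Rel. Without both libraries numbered 4 they were -0.12 for Il10, 0.0630 for Il1rn, 0.0061 for Il18, 0.0337 for Il12rb2, 0.0206 for Rela and, by genotype field, -0.0925 for Il10. Leaving out 1 library gave -0.21 to 0.55 for Il1b, -0.0289 to 0.52 for Il1a, -0.0747 to 0.35 for Il6, -0.15 to 0.25 for Il10, -0.53 to 0.33 for Il1rn, -0.36 to 0.84 for Il12b, -0.0156 to 0.0798 for Casp1, -0.41 to 0.83 for Il1r2, -0.82 to 0.0388 for Osmr, -0.26 to 0.68 for Il23a, -0.24 to 0.0241 for Il12rb2 and -0.0913 to 0.0903 for Rela. By genotype field it gave -0.75 to 0.0109 for Il1b, -0.32 to 0.0221 for Il6, -0.12 to 0.27 for Il10 and -0.0336 to 0.0618 for Casp1. Low counts limit Il10 and Il6, whose deposited values appear shrunken.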
